A study of Mus musculus with 24 samples.

Results

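The dorsal lateral geniculate nucleus (dLGN), the thalamic relay of vision, was compared at postnatal day 4 (P4) between mice that had lost both eyes before birth and mice with intact eyes. The comparison used 3 arrays of embBE mice and 3 of control mice, 6 of the 24 arrays of the series, chosen by the nucleus, age and condition in their labels. All mice were wild type on a C57BL/6 background. In embBE mice (embryonic bilateral enucleation) both eyes had been cauterized in utero, before retinal axons reach the thalamus; control mice were not enucleated. Each sample pooled dLGN tissue of pups of 1 litter and 1 condition, microdissected from vibratome sections, and its RNA went through 2 rounds of amplification before it was hybridized to 1 Affymetrix mouse array. Arrays are named by the pairs of numbers in their labels: embBE arrays 24_4, 36_2 and 40_3, and control arrays 24_2, 36_3 and 40_1. The meaning of these numbers is not stated, so p-values measure the spread between the arrays of a fit, which may be in part technical. The other arrays used here were of dLGN at P0 (4 embBE and 2 control) and of the ventrobasal complex (VB), the somatosensory neighbour of the dLGN. VB arrays were of P4 (3 embBE and 3 control) and of P0 (3 and 3). The P0 VB arrays entered the fit of the difference between nuclei, and their controls the gene lists drawn by nucleus or age.

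In the first days after birth, before the eyes open, the dLGN receives axons of retinal ganglion cells, whose spontaneous waves of firing drive its relay neurons. Firing and growth factors both act on neurons through the ERK kinase cascade. ERK induces early-response genes such as Fos, a subunit of the AP-1 transcription factor, and with them its own inhibitors, among which are the phosphatases Dusp4 and Dusp6. The level of these transcripts is therefore widely used as a readout of recent ERK signalling. Bulk tissue was measured, so fewer cells of a type and less RNA per cell cannot be told apart in any value given here.

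Values are log2 signals, normalized by the authors with RMA, so a difference of 1 is a doubling of the signal. Genes numbered 18193, each read from its brightest probe set. A gene was called, higher or lower in embBE, at the threshold of the study's methods, a fold change of at least 1.5 with an unadjusted p under 0.05, here from limma over the 12 dLGN arrays. At P4 36 genes (0.198% of those tested) were called, 12 of them higher (0.066%) and 24 lower (0.132%) in embBE. Adjusted for all genes tested, 0 genes had a limma p under 0.05, and the lowest adjusted p was 0.176 (Moxd1 and Chst2); single genes are therefore given with the SE of their log2 fold change. An unadjusted p under 0.05 was found in 236 genes (1.3%), where an even spread of p-values would give 910. The 2 groups of arrays did not overlap in 883 genes (4.85%), embBE above in 450 (2.47%) and below in 433 (2.38%). This was so in 25 of the 36 called genes, 7 higher and 18 lower, for which the fold threshold itself favours groups that do not overlap. In 3 against 3 arrays an exact permutation test cannot give a p below 0.1, so none was run per gene.

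Some arrays stood apart from the rest. Across all probe sets, the SD of the log2 signal lay between 2.24 and 2.33 on the embBE arrays and between 2.19 and 2.41 on the control arrays. Control arrays 24_2 (SD 2.41) and 40_1 (SD 2.19) were the extremes, and their deviations from the control mean correlated at −0.93 across genes, in part because the deviations of 3 arrays sum to 0. The 3′ probe set of the actin control exceeded its 5′ probe set by 3.33 to 3.94 log2 units on the embBE arrays and by 2.21 to 4.13 on the control arrays; array 24_2 had the smallest gap, and a smaller gap is usual for longer amplified RNA. Array 36_2 differed in the sex-linked genes. Xist, transcribed from the inactive X chromosome of females, was at 7.08 on embBE array 36_2 and between 10.23 and 11.38 on the other 5, and Eif2s3y, a gene of the Y chromosome named after its values were seen, was at 9.32 on it and between 3.67 and 3.78 on the others. Of 2 more Y-linked genes, Uty was at 5.24 on it and between 4.01 and 4.48 on the others, and Kdm5d at 5.20 and between 5.33 and 5.88. The P4 VB array labelled 36_2 had the same pattern, with Xist at 6.82 and Eif2s3y at 8.97. The sex of the pooled pups is not stated. No dLGN control array at P4 had a high Eif2s3y signal, and the part of sex in the values of array 36_2 was not tested. Eif2s3y had the largest log2 fold change of all genes, 1.87, and was not called. The arrays carried the signature of their nucleus: of 200 genes higher in dLGN than VB in P0 controls, 176 were higher in dLGN than VB in embBE mice at P4 (median difference 0.66) and 183 in control mice (0.76).

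The ERK inhibitors Dusp4 and Dusp6 and the early-response gene Fos were called lower in the dLGN of embBE mice. The log2 signal of Dusp6 was 7.61, 7.52 and 7.55 on embBE arrays 24_4, 36_2 and 40_3, and 8.72, 8.36 and 8.16 on control arrays 24_2, 36_3 and 40_1. The embBE arrays were close together and all below the control arrays, with a log2 fold change of −0.85 (SE 0.19), or 1.80-fold lower. Fos had signals of 7.75, 7.55 and 7.70 on the embBE arrays and of 8.67, 8.16 and 8.21 on the control arrays. These groups did not overlap either, and the log2 fold change was −0.68 (SE 0.22). Dusp4 had signals of 8.15, 7.55 and 7.75 on the embBE arrays and of 9.43, 8.71 and 8.17 on the control arrays. The highest embBE and the lowest control array differed by little in this gene, whose log2 fold change was −0.95 (SE 0.35). Dusp6 was called whichever of the 6 arrays was left out (−0.97 to −0.69). Fos was not called without control array 24_2 (−0.52), nor was Dusp4 without 24_2 (−0.62) or without embBE array 36_2. With the actin gap of each array as a covariate, added after the data were seen, Fos was not called and Dusp4 and Dusp6 were.

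The promoters of Fos and Dusp6 are shown because both genes respond to ERK and were called lower, and that of Moxd1, described further on, because its decrease was the largest of all genes. Each is 250 bases before to 50 bases after the start site from RefSeq (build GRCm38.p6), 5′ to 3′ on the strand of the gene. Capitals mark TGACG, the core of the site that CREB binds, and GGGCGG, the site of SP1, on either strand.

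Fos, chr12:85473640-85473939, plus strand: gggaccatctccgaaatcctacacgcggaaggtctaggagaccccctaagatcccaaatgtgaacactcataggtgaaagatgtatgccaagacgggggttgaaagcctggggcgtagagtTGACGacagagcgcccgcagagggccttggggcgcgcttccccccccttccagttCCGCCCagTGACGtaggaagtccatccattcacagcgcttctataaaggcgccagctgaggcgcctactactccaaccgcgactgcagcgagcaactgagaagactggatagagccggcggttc
Dusp6, chr10:99262981-99263280, plus strand: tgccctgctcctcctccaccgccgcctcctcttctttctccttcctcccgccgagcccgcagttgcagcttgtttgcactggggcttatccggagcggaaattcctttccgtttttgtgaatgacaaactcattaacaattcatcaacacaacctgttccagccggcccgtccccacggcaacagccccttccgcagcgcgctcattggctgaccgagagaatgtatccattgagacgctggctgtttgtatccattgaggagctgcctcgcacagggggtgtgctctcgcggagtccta
Moxd1, chr10:24223267-24223566, plus strand: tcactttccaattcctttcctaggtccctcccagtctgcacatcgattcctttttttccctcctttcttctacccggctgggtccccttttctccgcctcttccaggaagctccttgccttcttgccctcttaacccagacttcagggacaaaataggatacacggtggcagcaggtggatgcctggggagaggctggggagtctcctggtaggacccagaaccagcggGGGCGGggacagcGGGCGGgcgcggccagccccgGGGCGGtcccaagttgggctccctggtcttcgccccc

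The Fos window held TGACG on the plus strand at −129 and −66, counted from the start site to the first base of the match, and GGGCGG on the minus strand at −74. That of Moxd1 held GGGCGG at −21, −8 and 13, and the Dusp6 window held neither. Of 32851 windows of this length, 20.8% hold TGACG and 35.7% hold GGGCGG on either strand. Windows were found for 23 of the 36 called genes, 28 windows in all, of which 6 held TGACG and 16 held GGGCGG. The full site TGACGTCA (in 1.79% of all windows) was in 0 of the 28, and the AP-1 site TGANTCA (7.81%) was in 1, that of Myoz2. These are matches of letters and not measured binding.

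Most early-response genes were not called. Of 41 genes on a list of activity-regulated early-response genes 40 were measured. Of these 2, Dusp6 and Fos, were called lower and 0 higher, against 0.132% and 0.066% of all genes. In 5 of the 40 every embBE array was below every control array (2.38% of all genes), and in 0 every one was above (2.47%). The median log2 fold change of the 40 was −0.04, against 0.01 over all genes, and 17 of them were above 0. The members named next were chosen after their values were seen. Fosl2, an AP-1 partner of Fos, came closest to a call at −0.45 (SE 0.16), with every embBE array below every control array. Bdnf and Vgf, which code for a neurotrophin and a secreted neuropeptide precursor, also had groups that did not overlap, with changes of −0.20 and −0.17. Egr1, a zinc finger transcription factor induced by the same cascade, had the highest value of the list at 0.36 (SE 0.24), with signals of 8.52, 7.65 and 8.72 on the embBE arrays and 8.12, 7.66 and 8.03 on the control arrays. Arc, Junb and Fosb, which also respond to firing, were at −0.06, 0.06 and 0.11.

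Among genes of FGF signalling and its ERK feedback, 27 of 28 were measured, with a median log2 fold change of −0.06. Dusp4 and Dusp6 were called lower (0.132% of all genes) and 0 genes higher (0.066%), and 18 of the 27 were below 0. In 5 of the 27 every embBE array was below every control array (2.38% of all genes), and in 0 every one was above (2.47%). Dusp6 is on both lists. Feedback inhibitors other than the phosphatases, again named after their values were seen, were at −0.50 (Spred2), −0.32 (Spred3), −0.22 (Spry2) and 0.16 (Spry4). The transcription factor genes Etv4 and Etv5, which FGF induces through ERK, were at −0.04 and −0.11. Fgf15, an FGF ligand of the developing thalamus, had signals of 5.81, 5.31 and 5.74 on the embBE arrays and of 6.43, 6.14 and 5.78 on the control arrays. Its change of −0.50 (SE 0.19) was under the fold threshold, and it was larger at P0, at −1.13 (SE 0.20). The values of both lists, in the plot of ERK feedback and early-response genes, lie mostly within 0.5 of 0.

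**Figure D1:**
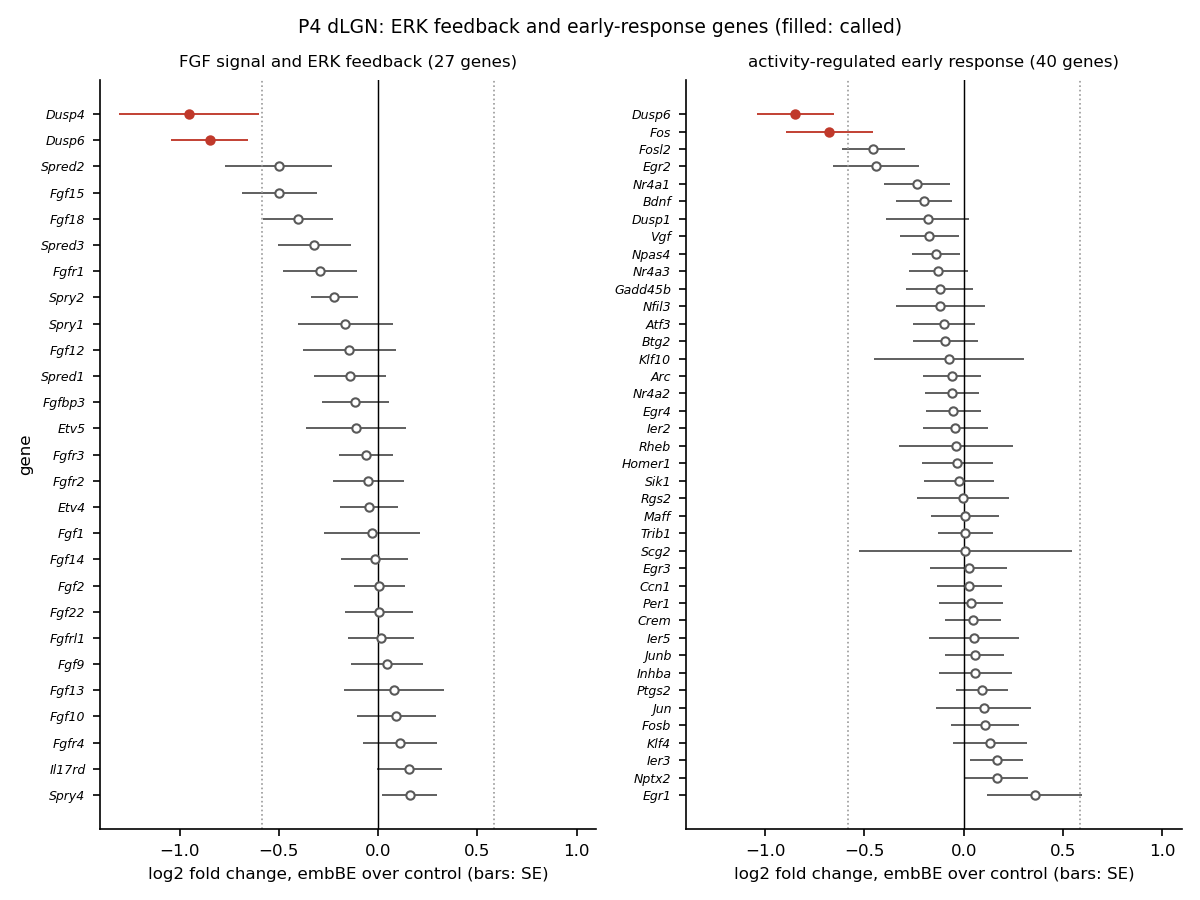
Log2 fold change in P4 dLGN, embBE over control, of 27 genes of FGF signalling and ERK feedback (left) and 40 activity-regulated early-response genes (right). Points are limma estimates for 3 embBE against 3 control arrays. Bars are their SE from the fit of all dLGN arrays, those of P0 included. Filled red points are called genes, and dotted lines mark a fold of 1.5. Dusp4, Dusp6 and Fos stand at the low end and the other members lie closer to 0.

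Moxd1, which codes for a monooxygenase related to dopamine beta-hydroxylase, had the largest decrease. Its signals were 7.88, 7.93 and 7.58 on the embBE arrays, against 9.60, 8.89 and 8.96 on the control arrays. The highest embBE array lay almost 1 unit below the lowest control array, with a log2 fold change of −1.35 (SE 0.20), or 2.56-fold lower. Chst2, a sulfotransferase that modifies N-acetylglucosamine on glycans such as keratan sulfate, had signals of 9.89, 10.28 and 10.31 on the embBE arrays and of 11.32, 11 and 11.27 on the control arrays. Its log2 fold change was −1.03 (SE 0.14), and 2 other probe sets were at −0.83 and 0.01. Osbpl3, a lipid-transfer protein of the oxysterol-binding family, had signals of 6.73, 6.82 and 6.58 on the embBE arrays and of 8.10, 7.81 and 7.17 on the control arrays, a log2 fold change of −0.98 (SE 0.24). All 3 genes were called whichever array was left out.

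A set of genes best known from striated muscle was called lower as well. Myot (myotilin), Myoz2 (myozenin, which binds calcineurin) and Pdlim5 (a PDZ and LIM domain scaffold that binds protein kinase C) code for proteins of the Z-disc, the anchor of actin filaments in the sarcomere. Myoz2 had signals of 5.82, 6.05 and 5.92 on the embBE arrays and of 6.67, 6.97 and 6.61 on the control arrays (log2 fold change −0.82, SE 0.15). Pdlim5, the brightest of them, had signals of 9.86, 10.12 and 9.76 on the embBE arrays and of 10.76, 10.67 and 10.52 on the control arrays (−0.74, SE 0.18). Myot was dim, with signals of 4.68, 4.91 and 4.65 on the embBE arrays and of 5.86, 5.75 and 5.20 on the control arrays (−0.86, SE 0.17). None of the 3 overlapped between groups, and each was called whichever array was left out. Of the 6 other probe sets of Pdlim5, 1 was called lower (−0.67) and the rest lay between −0.61 and 0.06. No list of muscle genes was made, so these were grouped after their values were seen.

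Other genes called lower code for secreted, membrane and signalling proteins. Pnoc, the precursor of the opioid-like peptide nociceptin, had signals of 7.81, 7.48 and 7.0 on the embBE arrays and of 9.39, 8.37 and 7.69 on the control arrays. Its log2 fold change was large, −1.05 (SE 0.38), but embBE array 24_4 lay above control array 40_1, and without control array 24_2 it was −0.60 and not called. It was the 1 called gene among 34 neuropeptide precursors and receptors (median 0.01), where 0.132% of all genes were called lower. Ppm1j, a protein phosphatase, had signals of 7.17, 7.01 and 6.91 on the embBE arrays and of 8.32, 7.62 and 7.26 on the control arrays (−0.70, SE 0.22). Slc38a4, an amino acid transporter, had signals of 5.24, 4.94 and 4.93 on the embBE arrays and of 6.40, 5.54 and 5.25 on the control arrays (−0.69, SE 0.25). Ldoc1, a small leucine zipper protein, was at −0.89 (SE 0.30) and Slc35d3, a transporter family member with a signal under 5 on every array, at −0.71 (SE 0.23). In Pnoc, Ppm1j, Slc38a4, Ldoc1 and Slc35d3 control array 24_2 was the highest of all 6, and none of them was called without it. Pnoc, Ldoc1 and Slc38a4 also lost their call without embBE array 40_3. Sncg, gamma-synuclein, which is abundant in retinal ganglion cells, had signals of 5.38, 5.42 and 5.59 on the embBE arrays and of 6.14, 6.18 and 5.89 on the control arrays (−0.61, SE 0.20). It was not called without embBE array 24_4 or control array 24_2 or 36_3. It was the 1 called gene of 12 measured retinal ganglion cell markers, where 0.132% of all genes were called lower. The median of the 12 was −0.00, but −0.12 without genes of a mean log2 signal under 6. With 1 array left out it ran between −0.11 (without control array 24_2) and −0.0006 (without embBE array 24_4). In 3 of the 12, Sncg, Thy1 (−0.26) and Nefl (−0.12), every embBE array was below every control array, as in 2.38% of all genes. Opn4, Isl2 and Eomes, markers of ganglion cell bodies, were at −0.01, 0.01 and 0.01 (the markers other than Sncg were named after their values were seen).

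**Figure D2:**
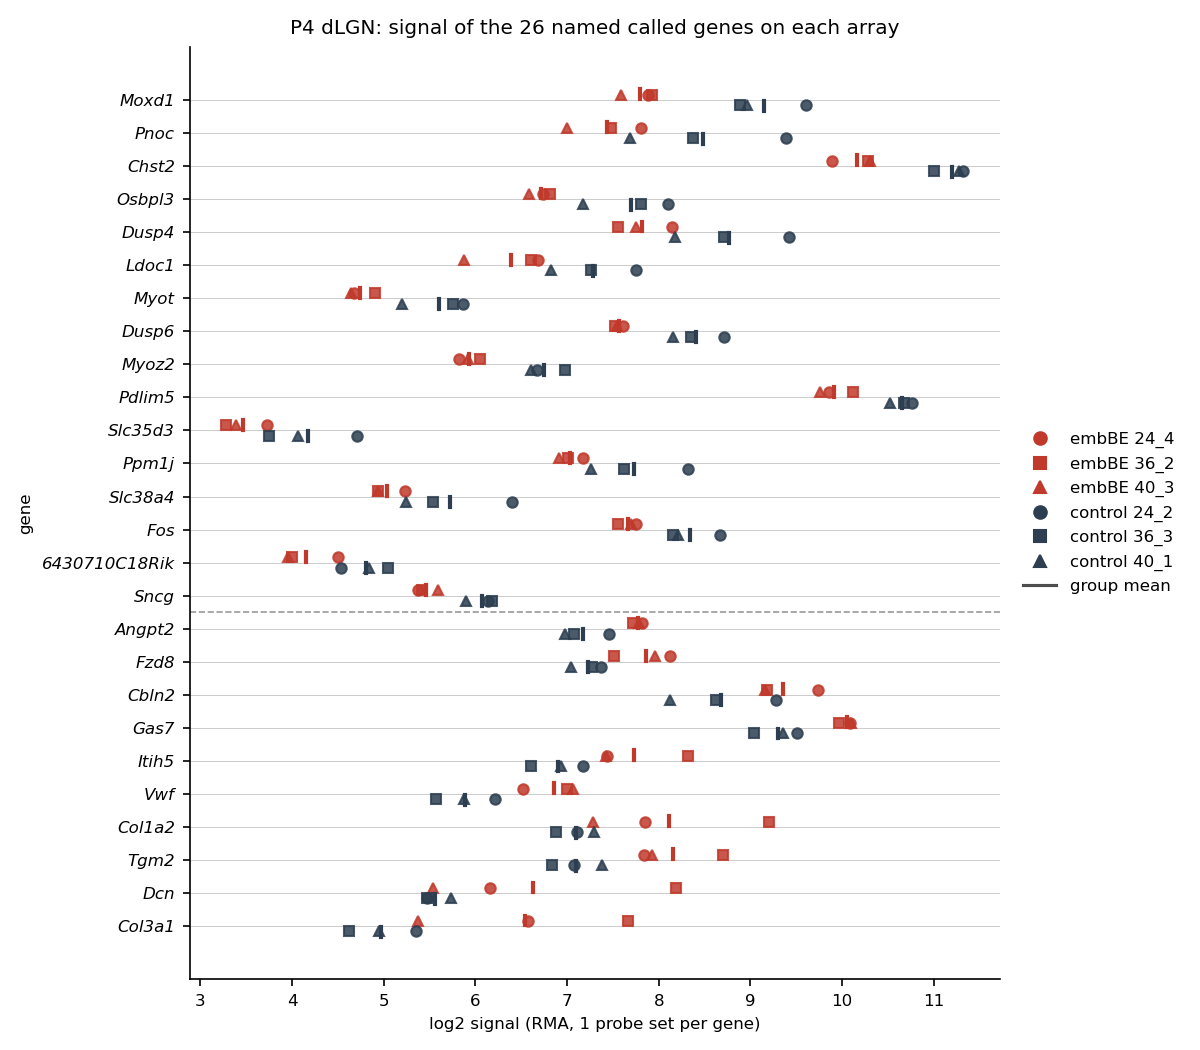
Log2 signal of the 26 named called genes on each P4 dLGN array. Red symbols, above the line of each gene, are the 3 embBE arrays and dark symbols, below it, the 3 control arrays; shapes give the first label number and short vertical bars the group means. Genes above the dashed line were called lower in embBE and those below it higher; embBE array 36_2 (red squares) lies far to the right in Col3a1, Dcn and Col1a2.

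Of the 12 genes called higher in the embBE dLGN, 3 belong to a list of meningeal fibroblast markers (Col3a1, Col1a2 and Dcn) and 1 to a list of vascular markers (Vwf). The fibrillar collagen Col3a1 had signals of 6.58, 7.66 and 5.37 on embBE arrays 24_4, 36_2 and 40_3, against 5.35, 4.62 and 4.95 on the control arrays. It had the largest increase of the called genes, a log2 fold change of 1.56 (SE 0.49), but embBE array 40_3 lay only just above control array 24_2. Col1a2, another fibrillar collagen, had signals of 7.85, 9.20 and 7.28 on the embBE arrays and of 7.11, 6.88 and 7.30 on the control arrays. The collagen-binding proteoglycan decorin (Dcn) had signals of 6.16, 8.19 and 5.54 on the embBE arrays and of 5.47, 5.47 and 5.73 on the control arrays. In both, the groups overlapped and array 36_2 was more than 1 unit above all others. The log2 fold change was 1.02 (SE 0.38) for Col1a2 and 1.07 (SE 0.48) for Dcn. Without array 36_2 it was 0.47 for Col1a2 and 0.29 for Dcn, both not called, and 1.0 for Col3a1, still called. Col1a2 also lost its call without control array 36_3, and Dcn without any of the 3 control arrays. A second probe set was at 0.28 for Col3a1, not called, and at −0.13 for Dcn. By the methods' t-test none of the 3 genes was called.

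These 3 genes were the called members of a list of 15 measured meningeal fibroblast markers, where 0.066% of all genes were called higher. The list had a median log2 fold change of 0.20, against 0.01 over all genes. Of its 15 genes 11 were above 0, as were 9371 of all 18193 genes. The mean log2 signal of the list was 5.93, 6.61 and 5.69 on the embBE arrays and 5.71, 5.56 and 5.84 on the control arrays, so that array 36_2 was the highest and the other 2 embBE arrays differed from the control arrays by little. Without 36_2 the median was 0.08. Microglia and complement markers had the same array on top, with list means of 6.50, 6.90 and 6.44 on the embBE arrays and 6.47, 6.39 and 6.62 on the control arrays, and 0 of 21 were called. Markers of neurons of neighbouring tissue also had their highest level on 36_2: the habenula list (13 genes, 9 above 0, median 0.08) had means of 7.11, 7.34 and 6.99 on the embBE arrays and 7.14, 7.17 and 7.09 on the control arrays, and the hippocampal and cortical list (12 genes, 11 above 0, median 0.12) had means of 6.05, 6.32 and 6.12 on the embBE arrays and 5.97, 6.04 and 6.07 on the control arrays. In both lists 0 genes were called, and without 36_2 the median was −0.03 for the habenula list and 0.03 for the hippocampal and cortical list. The relay neuron and GABAergic lists were highest on 36_2 too. The part of meningeal or other neighbouring tissue in the collagen values was not tested.

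Among the vascular genes Vwf did not rest on a single array. Vwf, von Willebrand factor of endothelial cells, had signals of 6.52, 7.0 and 7.06 on the embBE arrays and of 6.21, 5.57 and 5.88 on the control arrays. The groups did not overlap, the log2 fold change was 0.98 (SE 0.24), and it was called whichever array was left out. Angpt2, an angiopoietin that loosens vessels for sprouting, had signals of 7.82, 7.72 and 7.78 on the embBE arrays and of 7.45, 7.07 and 6.98 on the control arrays (0.60, SE 0.13). Its fold of 1.52 was just over the threshold, and it was not called when embBE array 24_4 or control array 36_3 or 40_1 was left out. A second Angpt2 probe set was at 0.15, and the mean of both, at 0.38, was not called. Vwf was the 1 called gene of 23 measured endothelial and mural markers, where 0.066% of all genes were called higher. The median of the 23 was 0.16, and it ran between 0.04 (without control array 36_3) and 0.30 (without control array 24_2) when 1 array was left out. In 4 of the 23 the embBE arrays did not overlap the control arrays and were higher (2.47% of all genes). These were Vwf, Pdgfrb (0.58), Acta2 (0.52) and Cdh5 (0.34), the last 3 named after their values were seen. Pecam1, a defining endothelial gene, was at −0.25 with signals under 4.6 on every array. List means were 7.56, 7.26 and 7.52 on the embBE arrays and 7.51, 7.13 and 7.16 on the control arrays, which overlap. Sox17, an endothelial transcription factor (0.66, SE 0.27), and Pf4, a chemokine of platelets and macrophages (0.59, SE 0.19), were also called, on overlapping arrays, and were named after their values were seen.

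**Figure D3:**
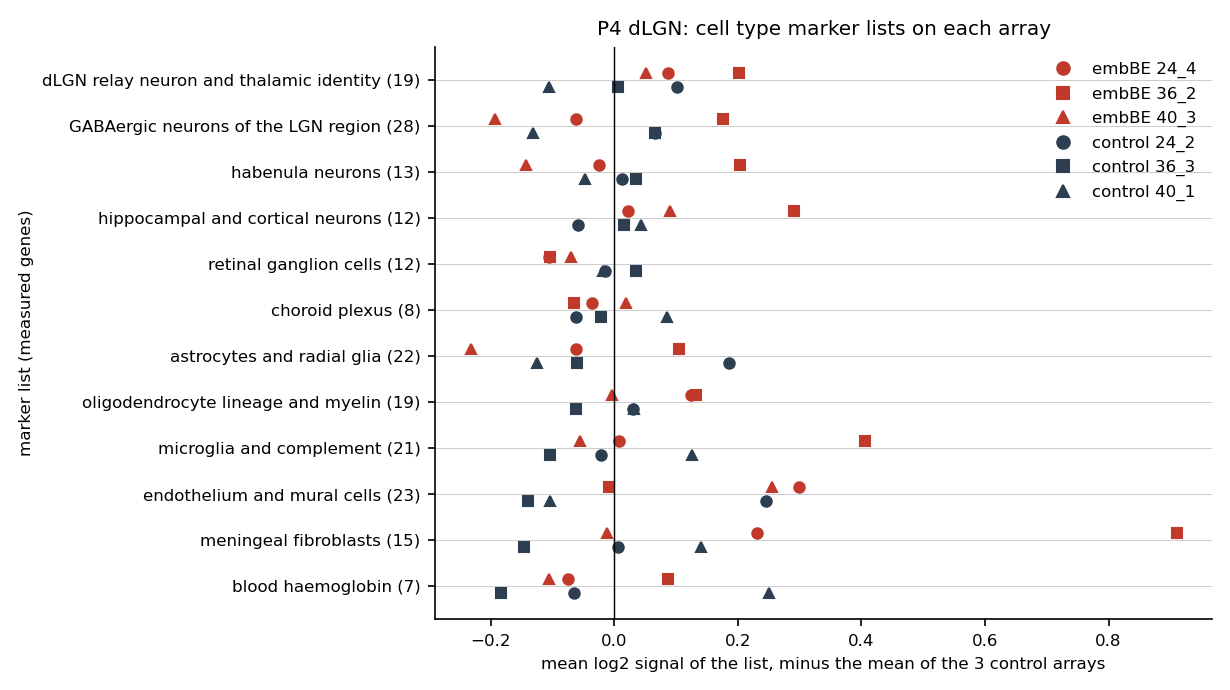
Mean log2 signal of 12 cell type marker lists on each P4 dLGN array, minus the mean of the 3 control arrays. Red symbols are embBE and dark symbols control arrays, and the number of measured genes stands beside each list; embBE array 36_2 (red square) stands alone at the high end of the meningeal fibroblast, microglia, habenula and hippocampal and cortical lists, and in the endothelial list it lies below the other 2 embBE arrays.

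Tgm2, a transglutaminase that crosslinks extracellular proteins and is found in endothelium and glia, had signals of 7.84, 8.70 and 7.93 on the embBE arrays and of 7.07, 6.83 and 7.38 on the control arrays, a log2 fold change of 1.06 (SE 0.29). Itih5, a hyaluronan-binding protein of the matrix, had signals of 7.44, 8.32 and 7.42 on the embBE arrays and of 7.17, 6.60 and 6.94 on the control arrays (0.82, SE 0.24). Both had their highest signal on array 36_2; without it Tgm2 was called and Itih5 was not. Of the 5 other probe sets of Tgm2, 2 were called at 1.04 and 1.19 and 3 lay between −0.12 and 0.08.

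Gas7, a growth-arrest protein that promotes neurite outgrowth, was called higher in embBE. Its signals were 10.09, 9.97 and 10.1 on the embBE arrays and 9.50, 9.04 and 9.36 on the control arrays, a log2 fold change of 0.75 (SE 0.14), and it was called whichever array was left out. Its 4 other probe sets lay between −0.04 and 0.40. Fzd8, a receptor of Wnt ligands, was the 1 called gene of 43 in the Wnt list (median 0.04), where 0.066% of all genes were called higher. Its signals were 8.13, 7.51 and 7.96 on the embBE arrays and 7.37, 7.28 and 7.04 on the control arrays (0.64, SE 0.26). A second Fzd8 probe set was at 0.04. Cbln2, a secreted organizer of synapses, had signals of 9.73, 9.18 and 9.16 on the embBE arrays and of 9.27, 8.62 and 8.12 on the control arrays. Its groups overlapped, and its log2 fold change was 0.68 (SE 0.31). Fzd8 and Cbln2 each lost the call when any of 4 of the 6 arrays was left out.

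At P0, on other arrays, 81 genes (0.445%) were called in dLGN, and 5 of the 36 genes called at P4 were among them, each in the same direction. Tgm2 was at 1.06 at P4 and 1.22 (SE 0.31) at P0, Vwf at 0.98 and 0.66 (SE 0.25), Osbpl3 at −0.98 and −1.07 (SE 0.25), Dusp4 at −0.95 and −0.96 (SE 0.37), and Ldoc1 at −0.89 and −0.71 (SE 0.32). Of the 24 genes called lower at P4, 20 were below 0 at P0 (median −0.22), where 45.4% of all genes were; of the 12 called higher, 8 were above 0 (54.7% of all genes). Fos was at −0.68 at P4 and −0.58 at P0 (SE 0.23), just short of the fold threshold there, and Dusp6 at −0.85 and −0.43 (SE 0.21). The collagens did not share a direction between ages: Col3a1 was at 1.56 at P4 and −0.56 (SE 0.52) at P0, and Col1a2 at 1.02 and −0.22 (SE 0.41).

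The difference of the embBE effect between ages, P4 minus P0, was tested as an interaction in the same fit. It met the threshold in 76 genes (0.418%), 41 of them lower at P4 (0.225%), with 0 at an adjusted p under 0.05 in limma (lowest 0.9997) and 143 at an unadjusted p under 0.05. Of the 36 genes called at P4, 11 met it, a share that is raised in part because they were chosen for a large effect at P4. The effect was more negative at P4 in Moxd1 (−1.35 at P4 and −0.40 at P0, difference −0.95, SE 0.29), Chst2 (−1.03 and −0.41, difference −0.63, SE 0.21), Myot (−0.86 and −0.00, difference −0.86, SE 0.24), Myoz2 (−0.82 and −0.09, difference −0.73, SE 0.21) and Pdlim5 (−0.74 and −0.04, difference −0.70, SE 0.27). It was more positive at P4 in Gas7 (0.75 and 0.03, difference 0.72, SE 0.20) and Col3a1 (difference 2.13, SE 0.72). The unnamed clone 6430710C18Rik, lower at P4 (−0.65, SE 0.18) and at 0.36 at P0, had a difference of −1.02 (SE 0.27); its call at P4 was lost without embBE array 36_2 or 40_3 or control array 36_3, and a second probe set was at −0.0093.

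In VB at P4, 29 genes (0.159%) were called, and 2 of the 36 dLGN genes were among them. Cbln2 was higher in both nuclei, by 0.68 in dLGN and 1.03 (SE 0.29) in VB. Osbpl3 was lower in dLGN (−0.98) and higher in VB (0.72, SE 0.26). Of the 24 genes called lower in dLGN, 9 were below 0 in VB (median 0.05), where 54.3% of all genes were below 0; of the 12 called higher, 11 were above 0 in VB (median 0.16), where 45.7% of all genes were.

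The difference between nuclei at P4, dLGN minus VB, met the threshold in 87 genes (0.478%), 66 of them lower in dLGN (0.363%). In limma 0 of these differences had an adjusted p under 0.05 (lowest 0.469), and 374 had an unadjusted p under 0.05. Of the 36 genes called in dLGN, 18 met it. These genes were chosen for a large effect in dLGN, 1 term of the difference, which in part raises that share. Osbpl3 had a difference of −1.71 (SE 0.38), Moxd1 of −1.52 (SE 0.39), Chst2 of −1.27 (SE 0.24), Dusp4 of −1.22 (SE 0.48), Dusp6 of −1.05 (SE 0.28), Fos of −0.98 (SE 0.32) and Myoz2 of −0.89 (SE 0.17). The ERK-regulated genes had positive values in VB, 0.26 (SE 0.27) for Dusp4, 0.20 (SE 0.18) for Dusp6 and 0.31 (SE 0.21) for Fos, and none of them was called there. The values of the 26 genes in the 3 comparisons stand side by side in the plot of P4 dLGN with P0 dLGN and P4 VB.

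**Figure D4:**
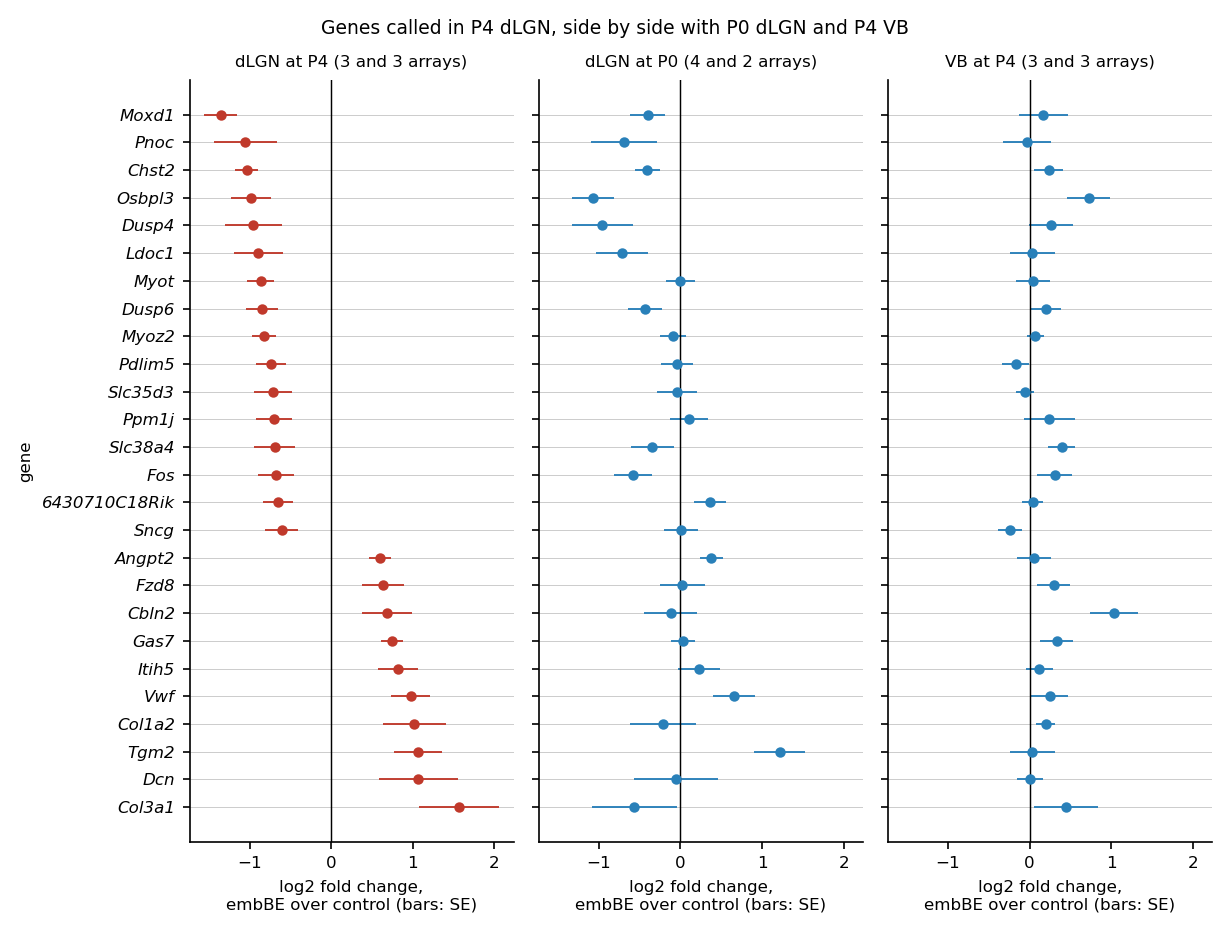
Log2 fold change, embBE over control, of the 26 named genes called in P4 dLGN, in dLGN at P4 (left), dLGN at P0 (middle) and VB at P4 (right). Points are limma estimates and bars their SE; Osbpl3, Dusp4, Tgm2 and Vwf lie on the same side of 0 in dLGN at both ages, while Osbpl3 lies on opposite sides of 0 in dLGN and VB.

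Genes that define the neurons of the dLGN were not called. Of 20 relay neuron and thalamic identity genes 19 were measured, 0 were called and 17 were above 0, with a median log2 fold change of 0.14. Slc17a6, the vesicular glutamate transporter of relay neurons, had signals of 12.93, 11.85 and 12.28 on the embBE arrays and of 13.02, 12.38 and 11.34 on the control arrays (0.11, SE 0.48). Tcf7l2, a transcription factor of thalamic neurons, was at 12.13, 12.49 and 12.42 on the embBE arrays and 11.77, 12.39 and 12.04 on the control arrays (0.28, SE 0.18). Rorb, a nuclear receptor of sensory relay neurons, was at 7.05, 7.79 and 7.66 on the embBE arrays and 7.29, 7.37 and 7.09 on the control arrays (0.25, SE 0.34), and Gbx2, a homeobox gene of the early thalamus, was at 0.10 (SE 0.79). Within these spreads no difference was detectable in any of the 4 genes.

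Local inhibitory neurons of the dLGN region arrive around birth from neighbouring territories. Of 28 measured GABAergic genes 0 were called, and their median was −0.00. Gad1, which makes GABA, varied more between control arrays than between conditions, with signals of 8.16, 8.33 and 7.63 on the embBE arrays and of 9.0, 8.25 and 6.61 on the control arrays (0.09, SE 0.71). Gad2 was at 0.02 (SE 0.43) and Sox14, a transcription factor of interneurons that migrate into the dLGN, at 0.17 (SE 0.16). Slc6a4, the serotonin transporter that relay neurons carry at this age, had signals of 9.35, 8.48 and 8.88 on the embBE arrays and of 10.27, 9.39 and 8.63 on the control arrays (−0.53, SE 0.37). Markers of glia were not called either: 0 of 22 astrocyte and radial glia genes (median −0.07), with Gfap at 0.38 (SE 0.28), and 0 of 19 oligodendrocyte lineage genes (median 0.07). C1qa, a complement gene of microglia, was at 0.19 (SE 0.29). Crabp2, a retinoic acid carrier found in meninges and in the auditory thalamus next to the dLGN, was at 5.96, 7.0 and 5.59 on the embBE arrays and 6.03, 5.43 and 5.46 on the control arrays (0.54, SE 0.67), again with array 36_2 on top.

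Genes that change with age in the neighbouring nucleus were used as a scale of maturation that no dLGN array had entered. The P4 VB control arrays behind it carried the same label pairs as the P4 dLGN control arrays. The 200 genes with the largest rise between P0 and P4 in control VB had a median log2 fold change of −0.10 in the embBE dLGN at P4, with 135 of 200 below 0. Of these 200, 7 were called lower and 0 higher, against 0.132% and 0.066% of all genes. The 7 were Pnoc, Myot, Pdlim5, Ppm1j, Slc38a4, Asb5 and Vil1 (the last 2 named after their values were seen). Pnoc, Ppm1j and Slc38a4 were not called without control array 24_2, while Myot and Pdlim5 were called whichever array was left out. The 200 genes with the largest decline had a median of 0.11, with 152 above 0, of which 2 were called higher (Cbln2 and Angpt2) and 1 lower (Dusp4). In the dLGN of control mice itself, 181 of the rising genes were higher at P4 than at P0. The lists also separate the 2 nuclei. At P4 the rising genes had a median difference, dLGN minus VB, of −0.71 in control and −0.92 in embBE mice. For the declining genes it was 0.33 and 0.42. Whether a shift in these lists reflects age or nucleus was not tested. The median of the rising genes was −0.28 without control array 40_1 and 0.07 without control array 24_2, so its sign rested on that array. The median of the declining genes stayed between 0.08 and 0.15 whichever array was left out.

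Which genes were called depended on single arrays, as the counts with each array left out show. The count was 140 without control array 40_1 (21 higher and 119 lower), 69 without control array 24_2 (45 and 24), 56 without embBE array 36_2 (12 and 44), 53 without embBE array 24_4, 33 without embBE array 40_3 and 29 without control array 36_3. Of the 26 named called genes, 11 were called in each of these 6 fits: Moxd1, Chst2, Osbpl3, Myot, Dusp6, Myoz2 and Pdlim5, lower in embBE, and Col3a1, Tgm2, Vwf and Gas7, higher. Of these 11, Col3a1 was not called by the methods' t-test, nor were 10 others of the 26: Itih5, Dusp4, Ldoc1, Slc35d3, Ppm1j, Slc38a4, Dcn, Col1a2, Cbln2 and Pnoc. With the probe sets of a gene averaged, Tgm2, Gas7 and Pdlim5 of the 11 were not called. Fzd8, Angpt2, Slc38a4, Dcn and 6430710C18Rik also lost their call in that setting.

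**Figure D5:**
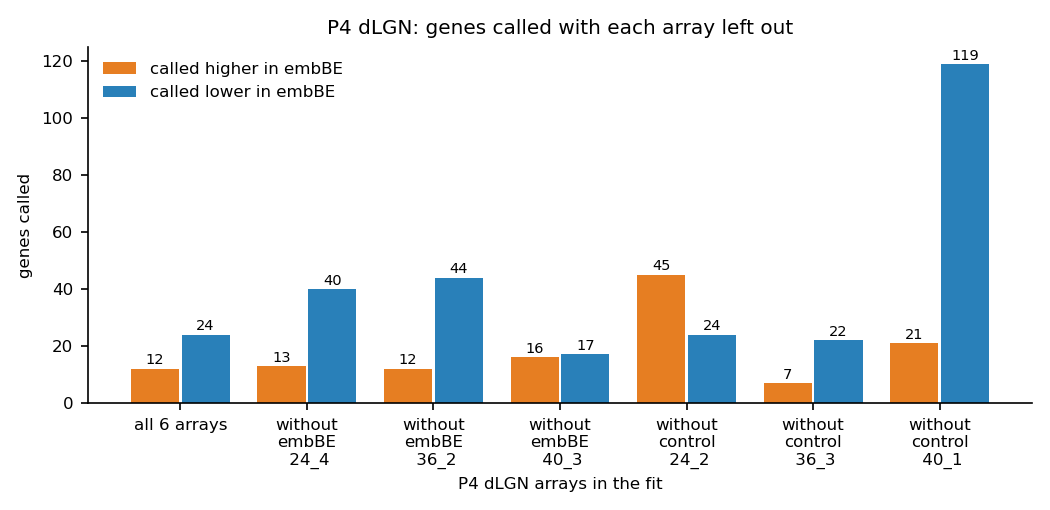
Number of genes called higher (orange) and lower (blue) in the embBE dLGN at P4 in the full fit and with each array left out. Leaving out control array 40_1 takes the count of lower genes to 119, against 24 in the full fit, and leaving out control array 24_2 takes that of higher genes to 45, against 12.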

How the data were processed

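Gene expression was measured on Affymetrix mouse arrays, 1 per sample. The authors normalized the signals with RMA, whose version is not given in the sources used, and analysed them with Partek and Matlab; they deposited log2 values for 45101 probe sets on 24 arrays, which were used as deposited. Neither detection calls nor probe-level data were at hand, and precision rests on how many arrays a group has. Of the probe sets, 64 array controls, 932 with several gene symbols and 9160 with no listed gene were not used. The other 34945 took their symbol from the platform annotation, updated through Entrez numbers for 34741, and each of 18193 genes was read from its probe set of highest mean over the 24 arrays.

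The 12 dLGN arrays were fitted in limma 3.58.1 (R 4.3.3) with 4 group means and eBayes, without covariates. A gene was called at a fold of at least 1.5 and an unadjusted p under 0.05, the threshold of the methods, which name no adjustment; Benjamini-Hochberg adjusted p-values over all genes stand beside it. The difference between ages was a contrast in the same fit. That between nuclei was a contrast over 24 arrays with the label pair as a random block (consensus correlation −0.0196). The procedure was tested on simulated data.

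Named genes were the 12 largest increases and 12 largest decreases among called genes with groups that did not overlap (clones passed over), called members of 42 gene lists, the 5 genes with the lowest p in each difference among called genes, and 13 fixed genes; others are marked as named after their values were seen. The comparison, the lists and the named genes were chosen with earlier results of these data known. Promoters came from RefSeq (GRCm38.p6). Alternatives changed the test, the probe sets, a filter on dim genes (mean log2 signal under 6), the arrays in the fit, the normalization, the fold scale, the eBayes settings and the block, and left out each array in turn; the SD and the actin gap of each array as covariates were added after the data were seen. Plots used matplotlib 3.10.9 (Python 3.11.15).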

Additional observations from a re-analysis of the deposited data

Results flagged for a closer look

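In 18 of the 26 named called genes the embBE effect in P4 dLGN differed from that in P0 dLGN or in P4 VB at the threshold of a fold of 1.5 and an unadjusted p under 0.05. None of these differences had an adjusted p under 0.05 in limma (lowest 0.9997 between ages and 0.469 between nuclei), and the rates over all genes were 0.418% and 0.478%. Called genes were chosen for a large effect in 1 of the 2 terms of each difference, so a higher rate among them follows from that choice in part.

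Between ages, P4 minus P0, the effect differed by 2.13 for Col3a1, 1.24 for Col1a2 and 0.72 for Gas7. It was −0.95 for Moxd1, −0.63 for Chst2, −0.86 for Myot, −0.73 for Myoz2, −0.70 for Pdlim5, −0.81 for Ppm1j and −1.02 for 6430710C18Rik.

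Between nuclei, dLGN minus VB, it differed by 1.03 for Tgm2 and 0.70 for Itih5. It was −1.71 for Osbpl3, −1.52 for Moxd1, −1.27 for Chst2, −1.22 for Dusp4, −1.08 for Slc38a4, −1.05 for Dusp6, −0.98 for Fos, −0.95 for Ppm1j, −0.90 for Myot, −0.89 for Myoz2, −0.69 for 6430710C18Rik and −0.65 for Slc35d3. Moxd1, Chst2, Myot, Myoz2, Ppm1j and 6430710C18Rik met the threshold in both differences.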

How the results depend on the processing

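The 36 calls became 19 with the methods' t-test (8 higher and 11 lower; 16 of the 36 among them), 63 when every probe set was counted (23 and 40) and 60 with the actin gap as a covariate (31 and 29), and between 29 and 140 with 1 array left out; the cause was not tested. They numbered 30 with probe sets averaged per gene, 25 without dim genes and 36 to 42 under the other arrays in the fit, normalizations, fold scale and eBayes settings. With each array centred on its median the split was 16 and 24, with cyclic loess 12 and 25, and with the SD covariate 22 and 28. An adjusted p under 0.05 was reached by 0 genes in limma, by 2 with all 24 arrays in the fit (Chst2 and Myoz2, lowest 0.0247) and by 7 with the SD of each array as a covariate (Moxd1, Chst2, Osbpl3, Dusp4, Myoz2, Gas7 and Cbln2, lowest 0.0118). The 76 differences between ages became 40 without dim genes and 66 to 291 with 1 array left out (291 without control array 24_2). The 87 between nuclei became 55 without dim genes and 50 to 661 with 1 array left out (661 without control array 40_1, 50 without control array 24_2 and 162 without embBE array 24_4).

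The first label number does not establish pairs: arrays sharing a number had correlated deviations of 0.76, 0.02 and 0.19, and embBE array 36_2 correlated best with control array 40_1 (0.58). With the number as a replicate block, 42 genes were called (15 and 27), 36 of the 36 among them, with a lowest adjusted p of 0.329, and the differences between ages numbered 87.

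Other probe sets had the opposite sign for Tgm2 (−0.12), Gas7 (−0.043), Chst2 (0.014), Pdlim5 (0.062), Dcn (−0.13), Rorb (−0.094), Gad1 (−0.064), Gad2 (−0.14) and Tcf7l2 (−0.23). Folds from mean intensities turned Gad1 (−0.18) and Xist (0.0081), and averaging probe sets turned Gad2 (−0.061). With 1 array left out, the sign was not stable in these uncalled genes: it ran between −0.46 and 0.59 for Gbx2, −0.58 and 0.61 for Gad1, −0.060 and 0.17 for Gad2, −0.35 and 0.49 for Slc17a6, −0.0067 and 0.38 for C1qa, and −1.68 and 0.47 for Xist (0.47 without embBE array 36_2). Of the 26 named called genes, 13 have other probe sets, 29 in all, of which 7 in 6 genes were also called, 17 had the same direction without a call and 5 the opposite direction. Signals near background, such as those of Myot, Slc35d3 and Slc38a4, could not be told from it without detection calls.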

Other observations

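Several lists of neuronal genes held 0 called genes or 1, and their values in the P4 dLGN are given here with members named after their values were seen. Of 46 semaphorin, Slit and netrin guidance genes, 33 were above 0 (median log2 fold change 0.11, and 0.04 without control array 24_2), 0 were called, and in 5 the embBE arrays did not overlap the control arrays and were higher, as in 2.47% of all genes: the plexin receptors Plxna2 (0.43, SE 0.20), Plxna1 (0.26, SE 0.11) and Plxnb2 (0.19, SE 0.14), the semaphorin Sema4c (0.37, SE 0.16) and the netrin receptor Unc5c (0.32, SE 0.13). Of 49 synapse organisers and adhesion genes, 37 were above 0 (median 0.10) and 1, Cbln2, was called higher, where 0.066% of all genes were. In 7 of them all embBE arrays were above the control arrays (2.47% of all genes) and in 1, Lrrtm3 (−0.25, SE 0.20), all were below (2.38%). Among the 7 were the teneurins Tenm4 (0.43, SE 0.20), Tenm2 (0.34, SE 0.12) and Tenm3 (0.17, SE 0.13), large adhesion proteins of matching synaptic partners. In the insulin-like growth factor system 4 of 16 genes were higher in embBE with no overlap (the same 2.47% of all genes), the ligand Igf2 (0.50, SE 0.21) and the receptors Igf2r (0.46, SE 0.17), Insr (0.31, SE 0.14) and Igf1r (0.30, SE 0.16), and 0 were called. Igf2 is also on the list of meningeal fibroblast markers.

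Among 57 potassium channel genes 0 were called (median 0.01). Kcnh2, an Erg channel, was at −0.46 (SE 0.15) and Kcnn1, a calcium-activated channel, at −0.45 (SE 0.20), each with all embBE arrays below all control arrays, while Kcnc2, a Kv3 channel of fast firing, was at 0.51 (SE 0.21) with all of them above. Cacna1g, the T-type calcium channel of thalamic bursting, was at 0.38 (SE 0.17) on overlapping arrays. Of 55 oxidative phosphorylation genes 51 were below 0, with small changes (median −0.11, lowest −0.28; the median was −0.067 without control array 24_2), and of 31 cytosolic ribosomal protein genes 28 were (median −0.05, between −0.12 without embBE array 24_4 and −0.0066 without control array 36_3). The mean log2 signal of the oxidative phosphorylation list was 12.18, 11.99 and 11.98 on the embBE arrays and 12.31, 12.2 and 11.98 on the control arrays, which overlap.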
